A study of Gallus gallus with 20 samples.

Results

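Keratinocyte keratins are one class of the beta-keratins, the small hard structural proteins of bird and reptile skin. The keratin table holds 16 rows of this class, named Chr25_Ktn1 to Chr25_Ktn16. The 10 described here were chosen by measured values as well as by name, under 3 conditions. Their names contain Ktn, they reached 1 RPKM (reads scaled to gene model length and to the library's mapped reads) in at least 2 of 20 libraries, and their mean was lower in feather than in control scale. They are Chr25_Ktn2 to Chr25_Ktn6 and Chr25_Ktn12 to Chr25_Ktn16, 10 of 180 keratins and of 16290 genes in all. Of the other 6 rows, 4 passed the RPKM condition and were higher in feather. Chr25_Ktn9 and Chr25_Ktn10 never exceeded 0.30 and 0.80 RPKM.

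All tissue came from White Leghorn chicken embryos at embryonic day 16. Scutate scales, the large plates on the front of the foot, carried RCAS, an avian retroviral vector, with 1 of 7 inserts: GFP as the control (n = 2), beta-catenin (n = 2), Grem1 (n = 2), Spry2 (n = 2), Sox2 (n = 2), Sox18 (n = 3) or Zic1-deltaC (n = 3). Virus or plasmid was delivered around embryonic day 3. Another 2 libraries came from scales of embryos given retinoic acid (RA) into the amniotic cavity on embryonic day 9, and 2 from feather-bearing dorsal skin. No virus is named for the RA and feather groups, so they differ from the GFP scales in infection as well. Feather differs from scale in body site too. RCAS infects whatever dividing cells it reaches, and nothing in the labels gives the share of infected cells or ties replicates to separate embryos. The p-values therefore reflect variation among these libraries, which may be technical.

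Beta-keratins are also called corneous beta-proteins. They fill the cells of the outer, cornified layers and harden claws, scales and feathers, on top of the alpha-keratin filaments (KRT genes) that all vertebrate epidermis makes. Their subfamilies, named for claw, scale, feather, feather-like and keratinocyte genes, lie as tandem copies. The row names place all 10 members on chromosome 25. Copies of one subfamily resemble each other, so reads may have been shared out among them, and single rows are uncertain to that extent. No pair of members had values within 2% of each other throughout the libraries where both reached 10 RPKM. The sources used here do not tell the functions of the single members apart.

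RPKM summed to between 373552 and 750919 per library, and keratins took between 4.39% and 74.4% of that sum. Because the measure is relative, a large keratin share lowers every other value. The smallest value above 0 was 0.10 RPKM in every library, the rounding step, so read depth is unknown. The beta-catenin, Grem1 and Spry2 libraries stand apart from the rest. In these 6 libraries 25 unnamed genes summed to between 591.7 and 761 RPKM, and all 25 were listed at 0 in the other 14 libraries.

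The 10 keratins together stood at 5448 ± 354 RPKM (SD, n = 2) in GFP scales. Their sum was 5197 RPKM in replicate 1 and 5698 in replicate 2. Beta-catenin scales had the most, 7148 ± 651 RPKM (n = 2), followed by RA scales with 6603 ± 538 (n = 2). Both groups lay above both GFP libraries. Grem1 scales held 4961 ± 231 RPKM (n = 2) and Zic1-deltaC scales 3971 ± 646 (n = 3). Sox18 and Spry2 scales came to about the same sum, 2640.0 ± 378 (n = 3) and 2666 ± 11.7 RPKM (n = 2). Sox2 scales had 529.6 ± 98.9 RPKM (n = 2), 10.3-fold below GFP and below the 799.5 ± 147 RPKM (n = 2) of feather. Fewer cells that make these transcripts and less transcript per cell cannot be told apart in such bulk samples.

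**Figure D1:**
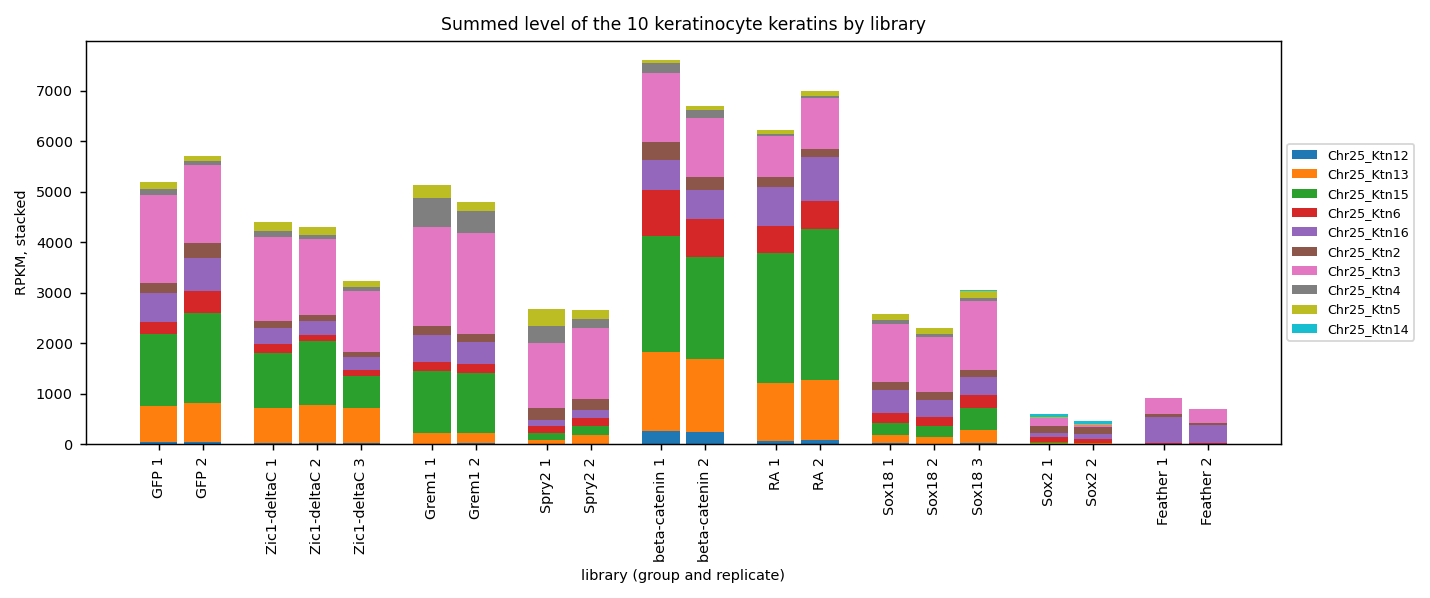
Stacked RPKM of the 10 keratinocyte keratins in each of the 20 libraries, ordered by group; each colour is 1 keratin. Beta-catenin and RA libraries reach the highest sums, between 6222 and 7608 RPKM, and the Sox2 libraries the lowest, 599.5 and 459.7 RPKM.

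The members' share of all keratinocyte keratin transcripts was 86.3% ± 0.90 in GFP scales (n = 2) and 16.0% ± 1.23 in feather (n = 2). The choice of members by feather and GFP values had fixed that it would be lower in feather. The share was 73.1% ± 0.79 with RA (n = 2) and 60.0% ± 6.49 with Sox18 (n = 3), the treated groups with the most feather keratin transcripts. Its mean lay between 87.7% and 96.2% in the other 5. With RA the members' own sum was above GFP. Chr25_Ktn11, outside the set, was at 2180 and 2341.3 RPKM with RA, against 759.5 and 921.6 in GFP scales. Against all beta-keratins the order differed. The members made up 6.18% ± 0.18 of beta-keratin RPKM in GFP scales, and 5.16% and 7.27% in the Sox2 libraries, where claw and scale keratins were low as well. They made up 2.70% ± 0.18 with RA and 1.43% ± 0.45 with Sox18. Feather keratins there summed to 210433 ± 1127 and 165351 ± 33461 RPKM, against 17368 ± 2005 in GFP scales.

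The comparison of feather with GFP scale chose the members, so it is given without a test. Over all genes, 78.6% of those tested were lower in feather and 9.68% higher, which is no result about the members. Chr25_Ktn12, Chr25_Ktn13, Chr25_Ktn15, Chr25_Ktn4 and Chr25_Ktn5 were at 1.2 RPKM or less in both feather libraries. Chr25_Ktn12 was listed at 0 in both. Chr25_Ktn2, Chr25_Ktn3, Chr25_Ktn6 and Chr25_Ktn16 remained in feather at 48.95 ± 1.91, 297.2 ± 26.6, 18.2 ± 1.48 and 432.8 ± 120 RPKM.

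The condition on feather was met narrowly by Chr25_Ktn14 and Chr25_Ktn16. Chr25_Ktn14 had a mean of 0.050 RPKM in feather and 0.20 in GFP scales, both below the level required of an expressed gene, so its place in the set says nothing of a preference for scale. Chr25_Ktn16 stood at 517.8 and 347.8 RPKM in feather against 570.4 and 659.9 in GFP scales. When each library was divided by its median ratio to the others, this order turned, to a mean of 953.5 in feather against 552.2 in GFP scales. That scaling moved the median log2 change of all genes in feather from -0.93 to -0.028. Division by the summed non-keratin RPKM, which takes out the keratin share, left that median at -0.44. It turned the order less far, to 654.6 in feather against 563.9 in GFP scales. The other 9 kept their order. The nearest row outside the condition was Chr25_Ktn11, with a mean of 3678 RPKM in feather and 840.5 in GFP scales.

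**Figure D2:**
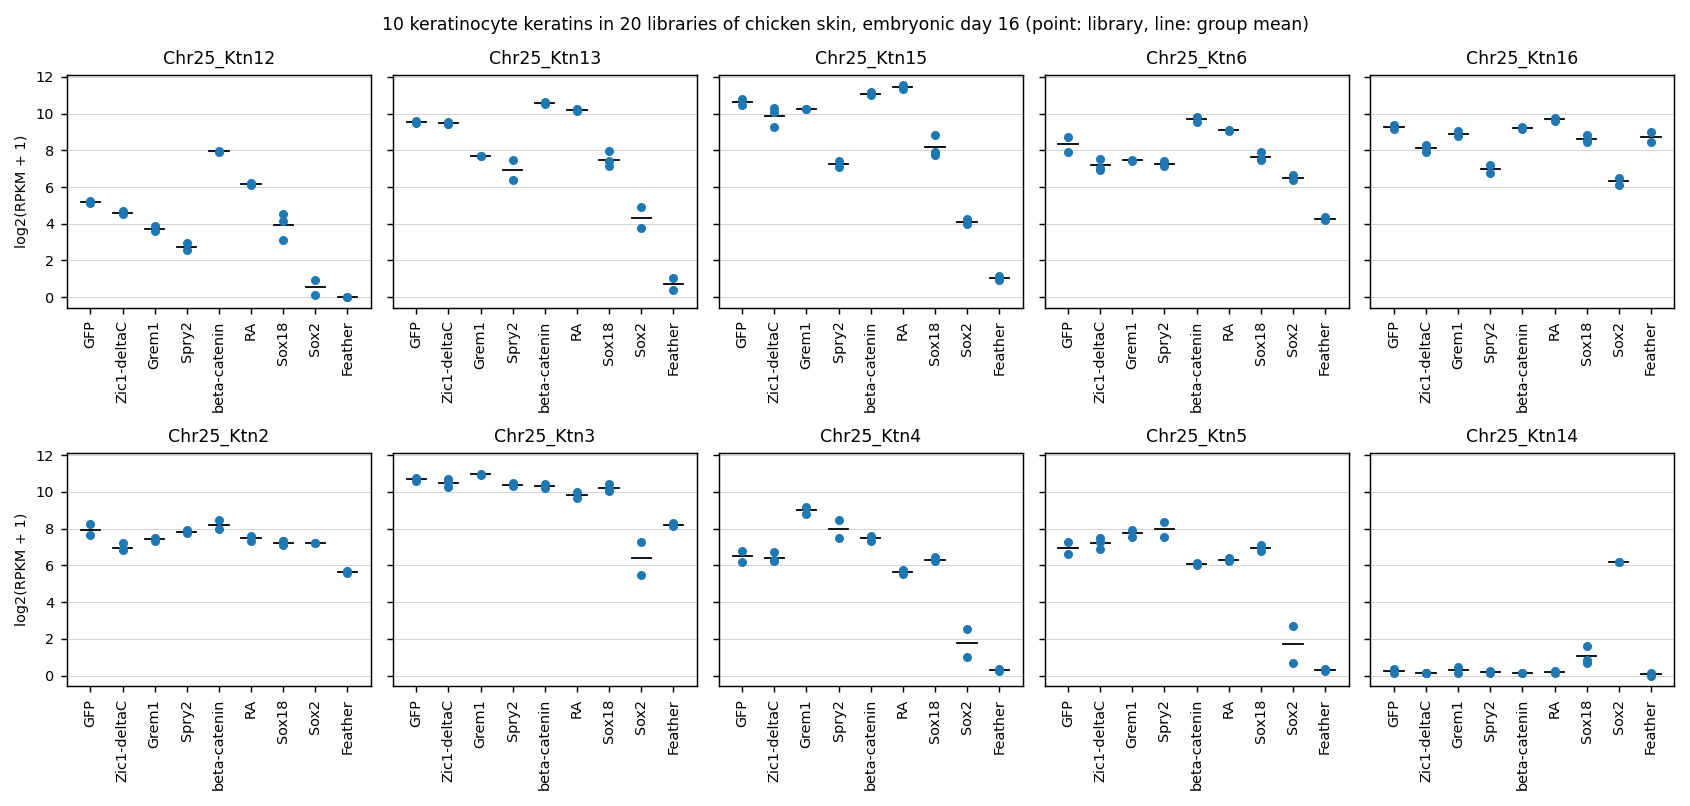
Level of each keratin as log2(RPKM + 1) in every library (points) with the group mean (line). Chr25_Ktn12, Chr25_Ktn13 and Chr25_Ktn15 peak in beta-catenin or RA scales, Chr25_Ktn4 peaks in Grem1 scales, and Chr25_Ktn14 is high in Sox2 scales alone.

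The members are described below in sets that were drawn up after their values were seen. The first is Chr25_Ktn15, Chr25_Ktn13 and Chr25_Ktn12, near 0 in feather and highest in RA or beta-catenin scales. Chr25_Ktn15 was at 1430.1 and 1789.1 RPKM in the GFP libraries, 2581 and 2991.1 with RA, and 2290.2 and 2033 with beta-catenin. It was at 1228.9 and 1197.7 with Grem1, and at 1082.7, 1271.4 and 620.2 with Zic1-deltaC. It dropped in steps after that, to 240.4, 212.5 and 452.1 with Sox18, 137.5 and 168.9 with Spry2, 18.3 and 14.6 with Sox2, and 1.2 and 0.90 in feather. Grem1 and Zic1-deltaC libraries overlapped, and every other neighbouring pair of groups in this order was separate.

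Chr25_Ktn13 was at 721.7 and 771.4 RPKM in the GFP libraries and at 687.8, 742.8 and 697.2 with Zic1-deltaC, groups that overlapped. Beta-catenin libraries had 1579.3 and 1445 RPKM and RA libraries 1139 and 1201.1, all above GFP. The value was 202.7 and 204.6 with Grem1, 169, 138.6 and 247.1 with Sox18, and 80.9 and 174 with Spry2, which overlapped among neighbours and lay below both GFP libraries. Sox2 libraries had 28.7 and 12.8 RPKM.

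Chr25_Ktn12 was the least abundant of the 3, at 36.6 and 33.9 RPKM in GFP scales. Of the 3 it had the largest ratio of beta-catenin to GFP scales, with 251.1 and 236.4 RPKM in the beta-catenin libraries. These libraries are among those that stand apart from the rest, GFP included, so treatment and that difference cannot be told apart here. RA libraries had 69 and 74.6 RPKM. Zic1-deltaC libraries had 23.8, 22 and 24.6, Sox18 libraries 16.9, 7.6 and 22.2, Grem1 libraries 11.2 and 13.5, Spry2 libraries 5 and 6.6, and Sox2 libraries 0.90 and 0.10. All 16 treated libraries lay outside the GFP pair, the beta-catenin and RA ones above and the others below.

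These 3 did not keep a fixed proportion. Per length of gene model, Chr25_Ktn13 exceeded Chr25_Ktn12 by 21.2-fold ± 2.15 in GFP scales (n = 2) and by 6.29-fold and 6.11-fold in the beta-catenin libraries. Chr25_Ktn15 exceeded Chr25_Ktn13 by 2.15-fold ± 0.24 in GFP scales and by 5.96-fold ± 0.15 in Grem1 scales, where Chr25_Ktn13 was low and Chr25_Ktn15 was not. A ratio within a library does not depend on how libraries are scaled, but it does depend on how reads were shared out among copies. The beta-catenin and Grem1 libraries are among those that stand apart, and the part of that in these ratios was not tested.

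Chr25_Ktn4 and Chr25_Ktn5, also near 0 in feather, followed another order. Chr25_Ktn4 was at 110 and 72.5 RPKM in the GFP libraries, and at 584.1 and 438 with Grem1, 348.2 and 181.3 with Spry2, and 195.5 and 161.2 with beta-catenin. These 6 libraries all exceeded 110 RPKM, the highest value of the other 14. Zic1-deltaC (106.7, 77.3 and 74.1 RPKM) and Sox18 (85.1, 73.6 and 76.3 RPKM) overlapped with GFP. RA libraries had 44.7 and 53 RPKM and Sox2 libraries 4.7 and 1.

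Chr25_Ktn5 was at 153.4 and 95.5 RPKM in the GFP libraries. Spry2 libraries had 327 and 185.6 RPKM and Grem1 libraries 241.6 and 187.5, again above GFP. Beta-catenin libraries had 68.4 and 64.3 RPKM, below GFP, in contrast to Chr25_Ktn4. RA libraries had 73.9 and 83.6, and Sox2 libraries 5.6 and 0.60. Zic1-deltaC and Sox18 overlapped with GFP.

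The ratio of Chr25_Ktn4 to Chr25_Ktn5 within a library was 0.74 ± 0.030 in GFP scales (n = 2), and at most 0.76 in any GFP, RA, Sox18 or Zic1-deltaC library. It was 2.38 ± 0.058 with Grem1 (n = 2), 2.68 ± 0.25 with beta-catenin (n = 2) and 1.02 ± 0.062 with Spry2 (n = 2). It was 0.84 and 1.67 in the Sox2 libraries and 1.0 in both feather libraries, at values of 5.6 RPKM or less. Among the other 7 groups, the 3 above GFP are those whose libraries carry the 25 unnamed genes listed at 0 elsewhere. The pair Chr27_FK45 and Chr27_FK46 also divided there, with a ratio between 4.42 and 6.79 in these 6 libraries and between 0.97 and 1.04 elsewhere. The part of that division in the Chr25_Ktn4 values was not tested. The GFP libraries lie on the other side of it, so its part and that of the 3 treatments cannot be told apart here. Within the 3 groups Chr25_Ktn4 ranged from 161.2 RPKM with beta-catenin to 584.1 with Grem1, which does not bear on their distance from GFP.

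**Figure D3:**
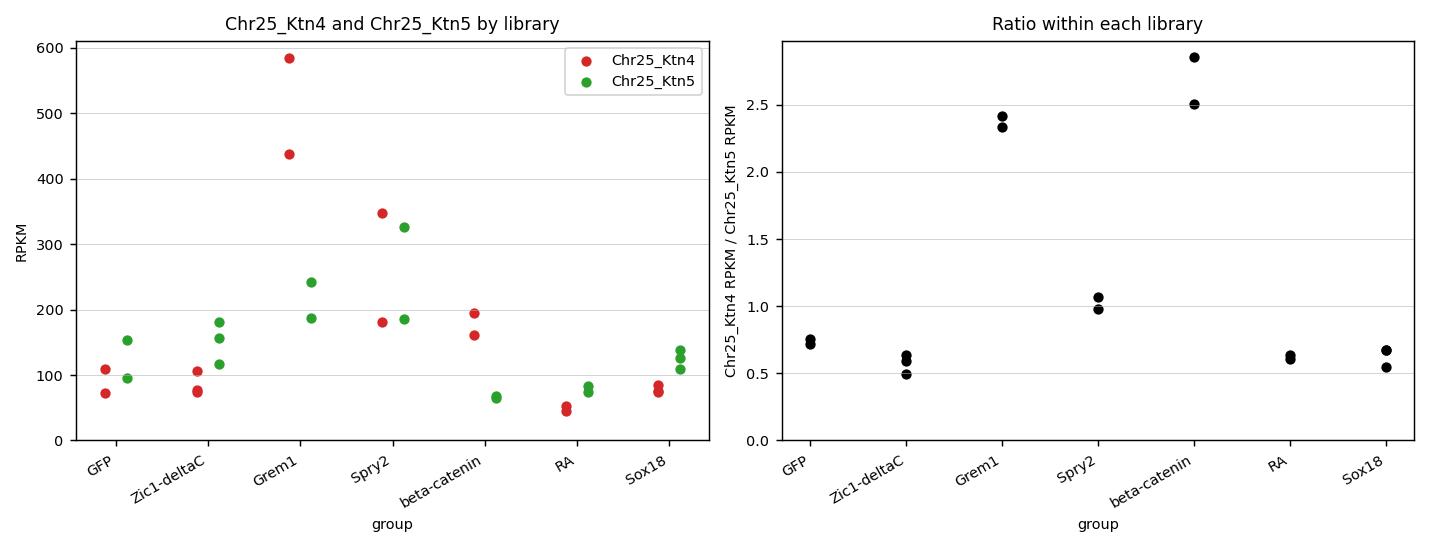
Left, RPKM of Chr25_Ktn4 and Chr25_Ktn5 by library in GFP and 6 treated groups; right, their ratio within each library. Grem1 and beta-catenin libraries have ratios between 2.34 and 2.86, Spry2 libraries 1.06 and 0.98, and the others 0.76 or less. Sox2 and feather are left out because their values are low, at 5.6 RPKM or less.

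Chr25_Ktn3 kept to between 818.1 and 1995.7 RPKM in every scale library outside Sox2. It was at 1738.5 and 1547.7 RPKM in the GFP libraries, 1967.2 and 1995.7 with Grem1, and 1292.7 and 1406.9 with Spry2. With beta-catenin it was at 1358.8 and 1174.2 RPKM and with RA at 818.1 and 1001.5. Zic1-deltaC and Sox18 libraries lay between 1073.6 and 1667.6 RPKM. Only Sox2 libraries, at 152.1 and 43.9 RPKM, lay below the feather libraries, at 316 and 278.4.

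Chr25_Ktn2 varied least among the treated groups. The highest of their means, 301.1 ± 68.0 RPKM with beta-catenin, was 2.41-fold the lowest, 124.8 ± 18.7 with Zic1-deltaC. The GFP libraries themselves differed, at 200.8 and 299.2 RPKM. Sox2 libraries had 148.8 and 145.3 RPKM, so this keratin remained at more than a trace where 8 other members were at their lowest among treated groups.

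Chr25_Ktn6 was at 235.3 and 429.1 RPKM in the GFP libraries, so the controls differed. Beta-catenin libraries had 910.8 and 741.9 RPKM and RA libraries 527.3 and 552.2, all above both. Sox18 libraries (186.3, 173.7 and 243 RPKM) overlapped with GFP. Grem1 (177.9 and 168.9), Spry2 (139 and 169.2), Zic1-deltaC (183.2, 122.6 and 131.3) and Sox2 (99.3 and 81) lay below it.

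Chr25_Ktn16 was at 777.9 and 865.1 RPKM with RA and at 604.8 and 578.7 with beta-catenin, the latter overlapping with GFP. It was at 530.3 and 433.6 with Grem1, 454.7, 348.5 and 372.2 with Sox18, and 314.3, 280.9 and 242.5 with Zic1-deltaC. Spry2 libraries had 106.7 and 148.5 RPKM and Sox2 libraries 69 and 89.

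Chr25_Ktn14 was the exception of the set. It was at 72.1 and 71.4 RPKM in the Sox2 libraries, at 0.60, 0.80 and 2.1 with Sox18, and at 0.40 RPKM or less in every other library, GFP and feather included. It thus passed the RPKM condition through the Sox2 libraries, without which 1 library reached 1 RPKM, so its high level in Sox2 scales is part of how it was chosen and is given without a test.

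Tests used limma on log2(RPKM + 1), fitted to 11863 genes in all 20 libraries, with the Benjamini-Hochberg adjustment over all genes and a threshold of 0.05. Log2 changes are differences on that scale, which understates changes of low values. Each treated group was first set against GFP, the control of the design. The GFP libraries had helped to choose the members, as ones high in GFP relative to feather, so these tests are not fully independent of the choice. A second set of contrasts, against other treated scales, holds neither GFP nor feather, although these libraries still enter the estimate of the spread. All 7 comparisons with GFP share the same 2 control libraries. Those of beta-catenin, Grem1 and Spry2 also cross the division between the 6 libraries with the 25 unnamed genes and the other 14, GFP included. Treatment and that division cannot be told apart in them. The second set of contrasts mixes libraries from both sides of it.

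Sox2 scales had 9 of the 10 members lower than GFP scales, where 10.4% of all genes were lower. The remaining one, Chr25_Ktn14, counts as higher, where 48.5% of all genes were, but the RPKM condition had fixed that. The median log2 change of the members was -4.48, against 0.28 over all genes. Chr25_Ktn15 fell by 6.53 (SE 0.31, limma adjusted p = 8.98e-11). Chr25_Ktn13 had a log2 change of -5.21 (SE 0.34, limma adjusted p = 4.83e-09) and Chr25_Ktn5 one of -5.23 (SE 0.43, limma adjusted p = 8.45e-08). The smallest fall was that of Chr25_Ktn2 (log2 change -0.73, limma adjusted p = 0.00272), which ended without GFP replicate 2 (0.0655).

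Spry2 scales had 5 members lower, where 7.41% of all genes were lower, and 1 higher, where 17.9% were higher. Chr25_Ktn15 fell by 3.38 (SE 0.31, limma adjusted p = 8.32e-07). The log2 change was -2.64 for Chr25_Ktn13 (SE 0.34, limma adjusted p = 3.54e-05), -2.42 for Chr25_Ktn12 (SE 0.31, limma adjusted p = 3.36e-05) and -2.28 for Chr25_Ktn16 (SE 0.20, limma adjusted p = 6.65e-07). The fall of Chr25_Ktn6 (log2 change -1.05, limma adjusted p = 0.00418) ended without GFP replicate 2 (0.0907) or Spry2 replicate 1 (0.0517). Chr25_Ktn4 rose by 1.48 (SE 0.36, limma adjusted p = 0.00708), a call that also ended without GFP replicate 2 (0.0847) or Spry2 replicate 1 (0.119). Chr25_Ktn2, Chr25_Ktn3, Chr25_Ktn5 and Chr25_Ktn14 did not pass.

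Grem1 scales had 4 members lower (18.2% of all genes lower) and 1 higher (13.2% higher). Chr25_Ktn4 rose by 2.49 (SE 0.36, limma adjusted p = 9.89e-05). Its highest values all lie in the 6 libraries that stand apart. Chr25_Ktn13 fell by 1.87 (SE 0.34, limma adjusted p = 0.000689) and Chr25_Ktn12 had a log2 change of -1.45 (SE 0.31, limma adjusted p = 0.00235), while Chr25_Ktn15 changed by -0.40 and did not pass (limma adjusted p = 0.354). Without GFP replicate 2 the falls of Chr25_Ktn6 (log2 change -0.87, limma adjusted p = 0.0111) and Chr25_Ktn2 (-0.54, limma adjusted p = 0.0329) ended, at 0.195 and 0.38. The first also ended without Grem1 replicate 2 (0.0585), and the second without Grem1 replicate 1 (0.0619) or 2 (0.175) and after median-ratio scaling (0.0802).

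Sox18 scales had 6 members lower, where 41.3% of all genes were lower, and 1 higher, where 12.3% were higher. Their median log2 change was -0.66, against -0.20 over all genes. Chr25_Ktn15 fell by 2.49 (SE 0.28, limma adjusted p = 2.99e-06). The log2 change was -2.05 for Chr25_Ktn13 (SE 0.31, limma adjusted p = 5.21e-05) and -1.24 for Chr25_Ktn12 (SE 0.29, limma adjusted p = 0.0017). Chr25_Ktn2 changed by -0.71 (limma adjusted p = 0.00193), Chr25_Ktn6 by -0.67 (0.0156) and Chr25_Ktn16 by -0.66 (0.00728), and all 3 calls ended without GFP replicate 2 (0.0724, 0.394 and 0.0761). That of Chr25_Ktn6 also ended without Sox18 replicate 2 (0.0576), and median-ratio scaling ended it and that of Chr25_Ktn16 (0.108 and 0.123). The rise of Chr25_Ktn14 (0.79, limma adjusted p = 0.00271) was one between values of 2.1 RPKM and less. Chr25_Ktn3, Chr25_Ktn4 and Chr25_Ktn5 did not pass.

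Zic1-deltaC scales had 3 members lower, where 9.90% of all genes were lower, and 0 higher, where 14.8% were higher. At an unadjusted p below 0.05 the count of higher members was also 0. The members that fell were Chr25_Ktn16 (-1.14, SE 0.19, limma adjusted p = 0.000324), Chr25_Ktn6 (-1.14, SE 0.22, limma adjusted p = 0.00124) and Chr25_Ktn2 (-0.98, SE 0.16, limma adjusted p = 0.000447). These 3 calls stayed when any one library was left out.

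Beta-catenin scales had 3 members higher, where 7.97% of all genes were higher, and 0 lower, where 15.2% were lower. At an unadjusted p below 0.05 the count of lower members was also 0. Chr25_Ktn12 rose by 2.76 (SE 0.31, limma adjusted p = 1.48e-05), and Chr25_Ktn6 by 1.37 (SE 0.24, limma adjusted p = 0.000706). Chr25_Ktn13 rose by 1.02 (SE 0.34, limma adjusted p = 0.0412), a call near the threshold that ended when either GFP library (0.155 and 0.105) or either beta-catenin library (0.155 and 0.115) was left out, or any of 7 libraries of other groups (0.0501 to 0.0512). Chr25_Ktn15 changed by 0.43 and did not pass (limma adjusted p = 0.336), and Chr25_Ktn4 by 0.98 (limma adjusted p = 0.0613, and 0.0417 with a change of 1.08 after median-ratio scaling).

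RA scales had 3 members higher, where 8.34% of all genes were higher, and 2 lower, where 52.2% were lower. Chr25_Ktn12 changed by 1.01 (SE 0.31, limma adjusted p = 0.0117), Chr25_Ktn15 by 0.80 (SE 0.31, limma adjusted p = 0.036) and Chr25_Ktn6 by 0.76 (SE 0.24, limma adjusted p = 0.0119). Chr25_Ktn3 changed by -0.86 (limma adjusted p = 0.0433) and Chr25_Ktn2 by -0.48 (0.0306). Chr25_Ktn4, at -0.86, did not pass (0.0506). Every one of these calls ended when some library was left out: Chr25_Ktn12 without RA replicate 2 (0.0628) or GFP replicate 2 (0.0539), Chr25_Ktn15 without RA replicate 1 (0.0647) or 2 (0.158) or GFP replicate 1 (0.18), and Chr25_Ktn6 without RA replicate 2 (0.0614) or GFP replicate 1 (0.247). Those of the lower members ended for Chr25_Ktn2 without RA replicate 2 (0.198) or GFP replicate 2 (0.406), and for Chr25_Ktn3 without any of 10 libraries (0.0511 to 0.18). After median-ratio scaling both lower calls ended (0.692 for Chr25_Ktn2 and 0.328 for Chr25_Ktn3), and 5 members were higher, with Chr25_Ktn13 (1.01, 0.0428) and Chr25_Ktn16 (0.78, 0.0209) added.

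**Figure D4:**
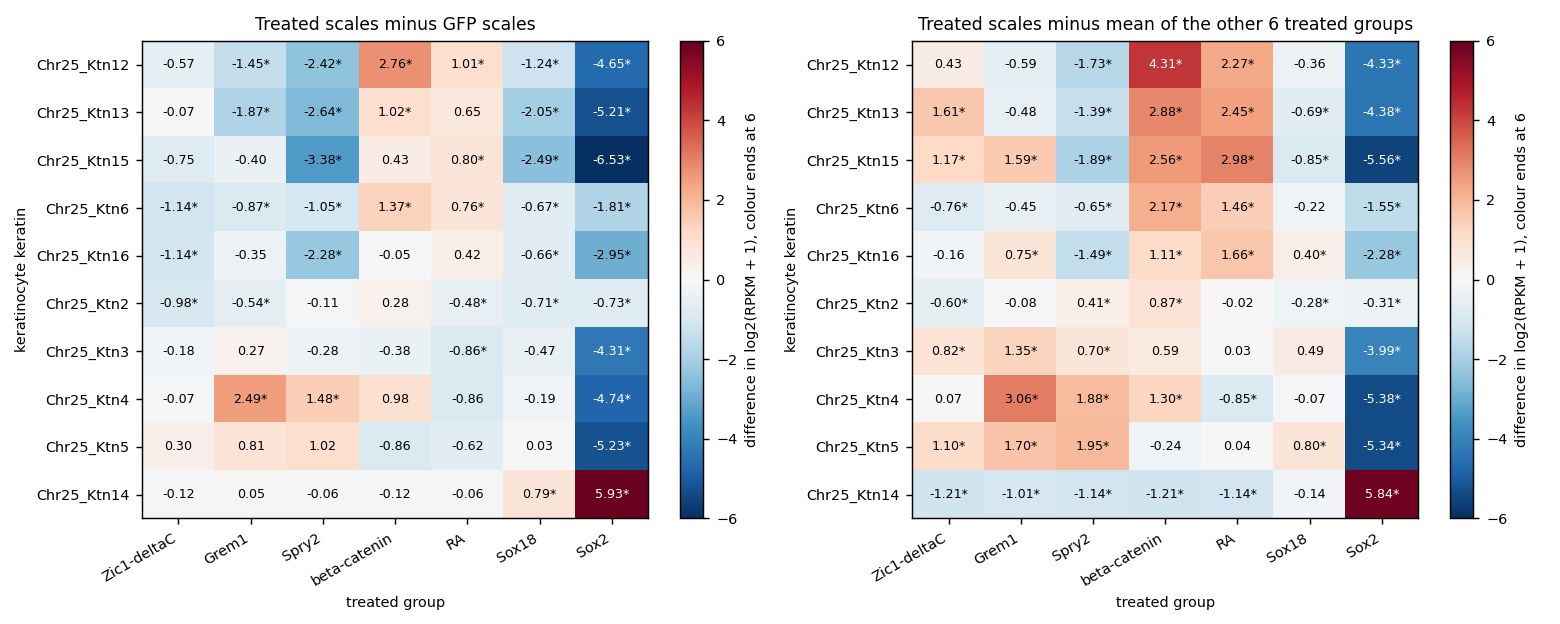
Differences in log2(RPKM + 1) for each keratin in each treated group, against GFP scales (left) and against the mean of the other 6 treated groups (right); asterisks mark limma adjusted p below 0.05. The Sox2 columns are blue but for Chr25_Ktn14, and Chr25_Ktn12 has its highest value with beta-catenin in both panels.

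Scaling bears on these counts through the whole table. As deposited, the median log2 change of all genes against GFP was -0.31 with RA, -0.20 with Sox18, 0.28 with Sox2, 0.11 with Spry2, -0.08 with beta-catenin, 0.05 with Zic1-deltaC and -0.05 with Grem1. Median-ratio scaling brought each of the 7 to between -0.021 and 0.0027. It moved the share of higher genes among those called from 13.8% to 53.4% with RA, from 22.9% to 49.0% with Sox18, from 34.4% to 52.9% with beta-catenin, from 82.3% to 45.5% with Sox2, from 70.7% to 50.3% with Spry2 and from 41.9% to 53.0% with Grem1. Of 70 member changes against GFP, 2 turned direction with it, both near 0 and not called: Chr25_Ktn4 with Sox18 (from -0.19 to 0.03) and Chr25_Ktn16 with beta-catenin (from -0.05 to 0.04).

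The contrasts that hold neither GFP nor feather set each treated group against the mean of the other 6. In Sox2 scales 9 members were again lower, where 11.1% of all genes were. Chr25_Ktn14 was higher, where 66.0% of all genes were, again as the RPKM condition had fixed. Sox2 scales are part of the reference for the other groups, so the lower calls of Chr25_Ktn14 counted there followed from the same condition. Chr25_Ktn15 (-5.56, SE 0.24, limma adjusted p = 1.15e-11), Chr25_Ktn4 (-5.38, limma adjusted p = 1.4e-10) and Chr25_Ktn5 (-5.34, limma adjusted p = 1.23e-09) were farthest below. Chr25_Ktn2 was near the threshold (-0.31, limma adjusted p = 0.048), and its call ended without any of 11 libraries (0.0537 to 0.19), among them both feather libraries.

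Beta-catenin scales had 7 members above the other treated groups (13.1% of all genes higher) and Chr25_Ktn14 below (22.4% lower). The calls of Chr25_Ktn14 (limma adjusted p = 0.282) and Chr25_Ktn4 (0.285) ended with Sox2 left out of the reference. Chr25_Ktn12 stood out by 4.31 (SE 0.24, limma adjusted p = 7.72e-10), Chr25_Ktn13 by 2.88 (SE 0.26, limma adjusted p = 4.18e-07), Chr25_Ktn15 by 2.56 (SE 0.24, limma adjusted p = 5.31e-07) and Chr25_Ktn6 by 2.17 (SE 0.18, limma adjusted p = 1.66e-07). RA scales had 5 above (8.91% of all genes higher) and 2 below (64.7% lower). The 5 were Chr25_Ktn15 (2.98, SE 0.24, limma adjusted p = 5e-08), Chr25_Ktn13 (2.45), Chr25_Ktn12 (2.27), Chr25_Ktn16 (1.66) and Chr25_Ktn6 (1.46), and their calls held when any one library was left out.

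Spry2 scales had 6 below (8.29% of all genes lower) and 4 above (34.5% higher). Below stood Chr25_Ktn15 (-1.89, SE 0.24, limma adjusted p = 1.82e-05), Chr25_Ktn12 (-1.73), Chr25_Ktn16 (-1.49), Chr25_Ktn13 (-1.39) and Chr25_Ktn6 (-0.65). The count below also holds Chr25_Ktn14 (-1.14), whose place there followed from the RPKM condition. Chr25_Ktn5 (1.95, limma adjusted p = 0.000288) and Chr25_Ktn4 (1.88, limma adjusted p = 8.93e-05) led those above. Without Spry2 replicate 1 the calls of Chr25_Ktn13 (0.0655), Chr25_Ktn6 (0.162), Chr25_Ktn2 (0.213) and Chr25_Ktn3 (0.16) ended, and those of the latter pair also without Spry2 replicate 2 (0.0757 and 0.203). That of Chr25_Ktn3 ended without any of 8 libraries of other groups too (0.05 to 0.0578). Grem1 scales had 5 above (15.4% of all genes higher), led by Chr25_Ktn4 (3.06, SE 0.28, limma adjusted p = 5.41e-07), and Chr25_Ktn14 below (17.9% lower). The call of Chr25_Ktn16 (0.75) ended without Grem1 replicate 1 (0.0589).

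Sox18 scales had 3 below (50.1% of all genes lower) and 2 above (12.9% higher), and Zic1-deltaC scales 3 below (16.0% lower) and 4 above (33.2% higher). Calls in all 6 groups other than Sox2 depended in part on Sox2 scales within the reference. With Sox2 left out of it, a choice made after the data were seen, Sox18 scales had 6 members below (41.8% of all genes lower) and Chr25_Ktn14 above (15.2% higher). Below stood among others Chr25_Ktn15 (-1.82), Chr25_Ktn13 (-1.46) and Chr25_Ktn12 (-1.11). Zic1-deltaC scales then had 4 below (14.2% lower) and 1 above (43.0% higher), Chr25_Ktn13 (0.91, limma adjusted p = 0.00264). RA scales had 5 above (8.54%) and 3 below (57.8%), beta-catenin scales 6 above (15.2%) and 1 below (15.7%), Spry2 scales 3 above (48.4%) and 5 below (7.68%), and Grem1 scales 2 above (2372 of 11863 genes) and 3 below (13.2%). Chr25_Ktn14 passed in Sox18 scales (0.86) and in none of the other 5 groups, where its lower calls ended (limma adjusted p between 0.146 and 0.896).

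The 4 keratinocyte keratins that are not lower in feather, Chr25_Ktn1, Chr25_Ktn7, Chr25_Ktn8 and Chr25_Ktn11, gave other counts against the same GFP libraries. The GFP values had helped to part these 4 from the members. A difference between the sets against GFP is thus in part built in, and it is given as a description. With RA all 4 were higher (8.34% of all genes higher), with a median log2 change of 2.21, against 0.18 for the 10 members. With Sox18 3 were higher and 0 lower (median 1.02), against 1 and 6 of the members (median -0.66), where 12.3% of all genes were higher and 41.3% lower. Beta-catenin scales had 3 of these 4 higher (median 2.14, 7.97% of all genes higher) and Sox2 scales 3 lower (median -2.07, 10.4% of all genes lower). Claw keratins had all 12 lower with RA, Sox18, Sox2, Zic1-deltaC and Spry2. The shares of all genes lower there were, in that order, 52.2%, 41.3%, 10.4%, 9.90% and 7.41%. Scale keratins had 9 of 16 lower with RA, near the 52.2% of all genes that were lower there, and 11 with Sox18. The fall with Sox2 was shared by other classes, with 15 of 16 scale and 43 of 84 feather keratins lower (10.4% of all genes lower). There 7 feather keratins and all 3 feather-like keratins were higher (48.5% of all genes higher).

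Keratins with profiles most like those of single members were sought among the other 153 keratins that passed the RPKM condition, by Pearson's r of log2(RPKM + 1) over the 7 treated group means. These points share libraries and relative scaling, and r is a description. The Sox2 point, the lowest for most members, weighs on it. Values of r over all 9 groups add feather and GFP, which chose the members, so they are in part built in. The choice also placed Chr25_Ktn6 and Chr25_Ktn1 on opposite sides of the comparison of feather with GFP. Chr25_Ktn16 was most like Chr25_scale3 (r = 0.99), Chr25_Ktn15 like KRT9 (0.96) and Chr25_Claw1 (0.96), and Chr25_Ktn13 like KRT9 (0.91). Chr25_Ktn3 and Chr25_Ktn4 were both most like Chr25_scale17 (0.95 each), and Chr25_Ktn5 like KRT10 (0.89). Chr25_Ktn6 was most like Chr25_Ktn1 (0.94), but over all 9 groups this was 0.01; Chr25_Ktn1 was at 442.1 and 518.5 RPKM in feather, against 20.2 and 29.8 in GFP scales. Chr25_Ktn12 was most like Chr25_Claw9 (0.88), Chr25_Ktn2 like ChrUn27_FK4 (0.82, and -0.50 over 9 groups), and Chr25_Ktn14, whose profile is in essence its Sox2 value, like KRT12 (0.96) and KRT7 (0.93). The mean of the 10 members was most like Chr25_Claw4 (0.99 over 7 and 9 groups).

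Among the members themselves, r over the 7 treated group means was 0.96 for Chr25_Ktn12 with Chr25_Ktn13, 0.94 for Chr25_Ktn13 with Chr25_Ktn15, and 0.97 for Chr25_Ktn3 with Chr25_Ktn5. Chr25_Ktn14 is left out here, since its profile is in essence the Sox2 value that let it pass. Among the treated groups Sox2 scales were lowest in 8 members, those of the 3 pairs included, and this low point weighs on each r. Chr25_Ktn3 had a mean of 98.0 RPKM in Sox2 scales and 909.8 or more in the other treated groups. For Chr25_Ktn5 these were 3.1 and 66.35 or more. The r without Sox2 scales was not computed.

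Alpha-keratins of other epidermal layers moved in part with these results. Suprabasal keratins (5 of 6 listed symbols are in the table, 0 of them at 0 in any group) mark the living layers above the base in mammals. They summed to between 2761.9 and 3212.1 RPKM in GFP scales, between 727.6 and 1217.6 in Sox2 scales and between 87.3 and 95.0 in feather, the groups with the lowest sums of the 10 members. Most of this sum was KRT10 in GFP and Sox2 scales, but KRT80 in feather, with means of 60.8 RPKM for KRT80 and 18.75 for KRT10. In Sox2 scales KRT78 went the other way, at 41.3 and 56.4 RPKM against 4.8 and 6.5 in GFP. KRT1 overlapped there with GFP, at 80.2 and 182.1 RPKM against 132.7 and 163.3. In feather KRT78 overlapped with GFP. The sums were above GFP in Zic1-deltaC (5095.8 to 5683.5), Grem1 (4256.6 to 4432.4) and Spry2 scales (3853.8 to 4249.9), where several members fell. They were below GFP in beta-catenin scales (2494.8 to 2708.9), which had the highest sum of the members, and in Sox18 scales (1834.1 to 2381.9). RA scales overlapped with GFP (2941.6 to 3358.6). Single rows departed from these sums. KRT9, at 297.4 to 323.4 RPKM in GFP, was above GFP in beta-catenin (376.6 to 397.4) and RA scales (544.3 to 616.0). In Spry2 scales KRT9 was below GFP (112.7 to 120.5), as was KRT80 (66.4 to 68.8 against 76.2 to 82.3). KRT9 went with the sum in Zic1-deltaC, Grem1 and Sox18 scales. KRT10 went with the sum in beta-catenin and Spry2 scales. Basal keratins (3 of 3, 0 at 0) summed to between 2978.7 and 3194.7 RPKM in GFP, 2038.5 and 2180.1 in Sox2 and 927.0 and 1071.2 in Sox18 scales. Their sums were below those of Sox2 scales in RA (1828.0 to 1920.5) and beta-catenin scales (1924.7 to 1984.0), the groups with the most member RPKM. The same held in Spry2 scales (1512.8 to 1689.3). Zic1-deltaC scales (2380.1 to 2494.4) were below GFP, and Grem1 scales (2968.2 to 3103.8) overlapped with it. Basal keratins too were lowest in feather, with a sum between 524.0 and 762.5 RPKM. Of the basal rows, KRT15 overlapped between Sox2 and GFP libraries. Keratins of simple epithelia (6 of 6, 0 at 0) summed to between 253.4 and 257.4 RPKM in GFP scales, between 349.1 and 485.4 in Sox2 scales and between 396.1 and 528.3 in Grem1 scales. Their sum in feather was between 273.3 and 365.6 RPKM. In Sox2 scales 5 of the 6 lay above GFP, where limma called 48.5% of all genes higher. KRT23 lay below, at 49.7 and 62.0 RPKM against 106.8 and 108.4, where 10.4% of all genes were called lower. In Sox2 scales KRT7 was at 25.6 and 32.2 RPKM, against 3.9 or less in every other library, the same division as that of Chr25_Ktn14. For Chr25_Ktn14 that division is part of how it was chosen. Keratins induced in stressed epidermis of mammals (KRT6, KRT16 and KRT17, 6 rows, 0 at 0) summed to between 5278.2 and 5430.9 RPKM in GFP scales. Their sum was lowest in feather, between 682.4 and 949.4 RPKM, although KRT16A and KRT16B were above GFP in feather. It was between 3462.6 and 3985.6 RPKM in Sox2 scales. KRT6A and KRT6C were below GFP there, and the other 4 rows above it, where limma called 10.4% of all genes lower and 48.5% higher. The mean of KRT16A was 326.1 RPKM against 9.85, that of KRT16B 66.3 against 1.25, that of KRT17 486.4 against 195.4 and that of KRT6B 721.5 against 131.7. The part of these layers in the changes of the members was not tested.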

How the data were processed

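Expression was read from 2 tables of RPKM deposited by the authors, 1 of all 16290 genes and 1 of 180 keratins, whose keratin values were identical (180 of 180). TopHat2, Partek and the chicken build galGal4 are named, without versions or roles, per the submitters' processing notes. All values have 1 decimal, and read depth is unknown.

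Genes at 1 RPKM or more in at least 2 libraries were kept (11863, of which 163 keratins). limma (3.58.1, R 4.3.3) was fitted with an intensity trend to log2(RPKM + 1) in 9 groups of 20 libraries, with 11 residual and 5.35 prior degrees of freedom and Benjamini-Hochberg adjustment over all genes within each comparison. The code was tested on simulated data. Python 3.11.15 with pandas 2.3.3 and matplotlib 3.10.9 did the rest. No label ties replicate numbers to embryos or batches, so the main fit has no replicate block.

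All 10 members of the rule are named, with the nearest row outside it, rows failing the RPKM condition, and keratins among the 3 most similar to each member. The members, lists and tests were chosen with earlier results of these data known. Alternatives were other filters, a pseudocount of 0.1, 3 scalings, a replicate block, a robust prior, the compared groups alone, each library left out, and, after the data were seen, a reference without Sox2. No sequences of these keratins were used here.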

Additional observations from a re-analysis of the deposited data

How the results depend on the processing

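Of 92 calls of single members (39 against GFP and 53 against the other treated groups), a filter at a mean RPKM of 5 ended 0, a pseudocount of 0.1 ended 3, the replicate block 3, a robust prior 5, no filter 6, quantile normalization 6, median-ratio scaling 10 and division by the summed non-keratin RPKM 9. None turned direction in these settings. With the compared groups alone, 7 of 38 calls against GFP ended. Leaving Sox2 out of the reference kept 28 of 43 and ended the rest, 1 of them with the direction turned. Against GFP, the count of members higher with RA was 3, and became 5 with median-ratio scaling or non-keratin division and 1 with quantile normalization. The count lower was 2, and became 0 with those 2 scalings and 1 with quantile normalization, no filter or a robust prior. With the compared groups alone 0 were higher with Sox18 and with Spry2 and 2 lower with Grem1, and quantile normalization gave 2 higher with Spry2. The member higher with Sox18, Chr25_Ktn14, was not tested in that setting. Among the Sox18 and GFP libraries only Sox18 replicate 3, at 2.1, reached 1 RPKM.

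Against the other treated groups, members lower with RA became 1 with a pseudocount of 0.1 or either of those 2 scalings. Members higher with Sox18 became 1 with quantile normalization, a robust prior or a reference without Sox2, and members lower became 1 with median-ratio scaling and 6 without Sox2 in the reference. Members higher with Spry2 became 2 with both scalings. Members lower with Grem1 became 2 with median-ratio scaling or quantile normalization and 3 with non-keratin division or without Sox2 in the reference, which also gave 2 higher with Grem1 and 1 higher with Zic1-deltaC. With that reference Chr25_Ktn5 in Sox18 scales turned, from 0.80 to -0.10. Apart from Chr25_Ktn14 with Sox18, which the RPKM condition removed, the cause of these moves was not tested. The compared groups alone also hold fewer samples.

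With each library left out in turn, counts against GFP ranged, higher then lower, from 0 to 3 and 0 to 4 with RA, 1 to 1 and 3 to 7 with Sox18, 2 to 4 and 0 to 1 with beta-catenin, 1 to 1 and 8 to 9 with Sox2, 0 to 0 and 3 to 4 with Zic1-deltaC, 0 to 2 and 4 to 5 with Spry2, and 1 to 2 and 2 to 4 with Grem1. Against the other treated groups they ranged from 5 to 5 and 1 to 2 with RA, 0 to 3 and 1 to 4 with Sox18, 7 to 8 and 1 to 1 with beta-catenin, 1 to 1 and 8 to 9 with Sox2, 4 to 5 and 3 to 3 with Zic1-deltaC, 2 to 4 and 4 to 6 with Spry2, and 4 to 5 and 1 to 2 with Grem1. Against GFP, moves by over 1.5 times came without RA replicate 2 or GFP replicate 1 for the count higher with RA, and without any of 12 libraries for that lower with RA. They came without GFP replicate 2 for that lower with Sox18, either Sox2 library for that lower with beta-catenin and higher with Grem1, GFP replicate 2 or Grem1 replicate 2 for that lower with Grem1, and either Sox2 library, GFP replicate 2 or Spry2 replicate 1 for that higher with Spry2. Against the other treated groups they came without RA replicate 1 for the count lower with RA, Sox18 replicates 1 or 3 for that higher and 1 or 2 for that lower with Sox18, either Spry2 library for that higher with Spry2, and Sox2 replicate 2, either GFP library or Sox18 replicates 2 or 3 for that lower with Grem1.

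With the replicate block, Sox2 scales had 9 members lower and 1 higher against GFP, as without it. Over 36 pairs of groups the deviations of equally numbered libraries correlated between -0.279 and 0.213, and 3 pairs exceeded 0.10, so the numbers were not used as pairs. Depth is unknown, so values near the rounding step of 0.10 RPKM, as for Chr25_Ktn14 outside Sox2 scales, limit what could be seen.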
